A study of Vulpes vulpes with 48 samples.

Results

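The 100 genes described here are those whose RNA levels in the prefrontal cortex and in the basal forebrain of silver foxes (Vulpes vulpes) went up and down together from library to library within a line. They were chosen by a measured value. For each gene, log2(CPM + 1) was taken in every library, where CPM is the count per 1000000 counts of that library, and the mean of each line in each region was subtracted. Cortex and forebrain libraries of 1 line whose identifiers end in the same 2 digits were set side by side as a pair, and the genes were ranked by Pearson's r across 16 pairs, 5 tame and 11 aggressive. Of 13202 genes in either count table, 12695 were in both, and 10743 of these had a mean of at least 5 CPM in each region. The 100 with the highest r are called the covarying genes below. Because r chose them, r and every measure made from the same deviations is given as a description, without a test.

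The libraries come from 2 lines of farm foxes, one selected over generations for tame behaviour towards people and one for aggressive behaviour. All 4 groups were males aged 1.5 years, and RNA-seq of poly(A) RNA was done on the prefrontal cortex of the right side, in 12 libraries of each line, and on the basal forebrain of the same side, in 10 tame and 12 aggressive ones. The labels list 48 samples, 12 per group, of which 2 of the tame forebrain, ID488 and ID490, were not analysed here. No treatment or transgene is named in the labels. They do not state that libraries with the same last 2 digits came from the same fox, nor whether foxes of a line were related. P-values therefore cover the spread between these libraries.

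The prefrontal cortex takes part in planning and in the control of social and emotional responses. The basal forebrain holds cholinergic and other projection neurons that set arousal and attention in the cortex. The level of an RNA in such tissue commonly varies between animals of 1 population, and part of that variation can be shared between tissues of an animal while another part belongs to 1 tissue. In bulk tissue, fewer cells of a type and less RNA per cell cannot be told apart. The files give dog Ensembl gene identifiers and do not pair them with names, and a RefSeq table of fox genes on assembly VulVul3 held 0 of the 100, so the genes are given by identifier, without symbol, position or sequence. For the same reason the defining markers of the 2 regions could not be checked.

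In units of 1000000 counts, cortex libraries held 6.23 to 17.2 and forebrain libraries 6.25 to 13.6. Tame cortex libraries ID182, ID186, ID187 and ID191 stood apart from the other tame cortex libraries in many genes, and the rule leaves them and their partners out of r. Among the covarying genes, all 4 lay below every other tame cortex library in 16 and above every other in 13. Among the other eligible genes, the shares were 27.2% and 14.1%. Counts of genes past a threshold in the edgeR fits that used these libraries are given with and without them. For single genes this is done only where stated.

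The covarying genes had r from 0.766 to 0.950 with a median of 0.8288, where the eligible genes had a median of 0.15 and reached down to -0.776. High values were more frequent than equally low ones over the eligible genes as a whole. An r over 0.5 was found for 1115 genes (10.4%) and an r under -0.5 for 109. Over 0.7 there were 206 genes against 9 under -0.7, and over 0.8 there were 63 against 0. The cut fell where neighbours hardly differed. ENSCAFG00000019492 and ENSCAFG00000010223, the last genes inside it, both had an r of 0.766, and ENSCAFG00000000335 and ENSCAFG00000015939, the first outside it, had 0.765 and 0.764.

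The covarying genes also varied more within a line than other eligible genes did. Their median standard deviation across the pairs was 0.31 log2 units in the cortex and 0.32 in the forebrain, against 0.16 and 0.19 for the others. The size of the deviations was alike in the regions. The ratio of the forebrain to the cortex standard deviation had a median of 0.998, a value not computed for the other eligible genes. The slope of the forebrain deviation on the cortex deviation had a median of 0.82 and lay between 0.5 and 1.5 in 96 of 100 genes. This slope is r times that ratio, so it is in part set by the choice of high r. The other eligible genes had a median slope of 0.17. Their abundance was ordinary, with a median of 36.3 CPM in the cortex and 42.5 CPM in the forebrain against 39.8 and 44.8 CPM for the other eligible genes. These CPM values are not divided by gene length and do not rank genes by abundance of their RNA. Counting error made up a median of 7.21% of the variance of a covarying gene in the cortex and 6.89% in the forebrain, against 19.5% and 13.3% in the others. The lowest count of any covarying gene in a paired library was 17, which has a counting error of 24.3%.

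**Figure D1:**
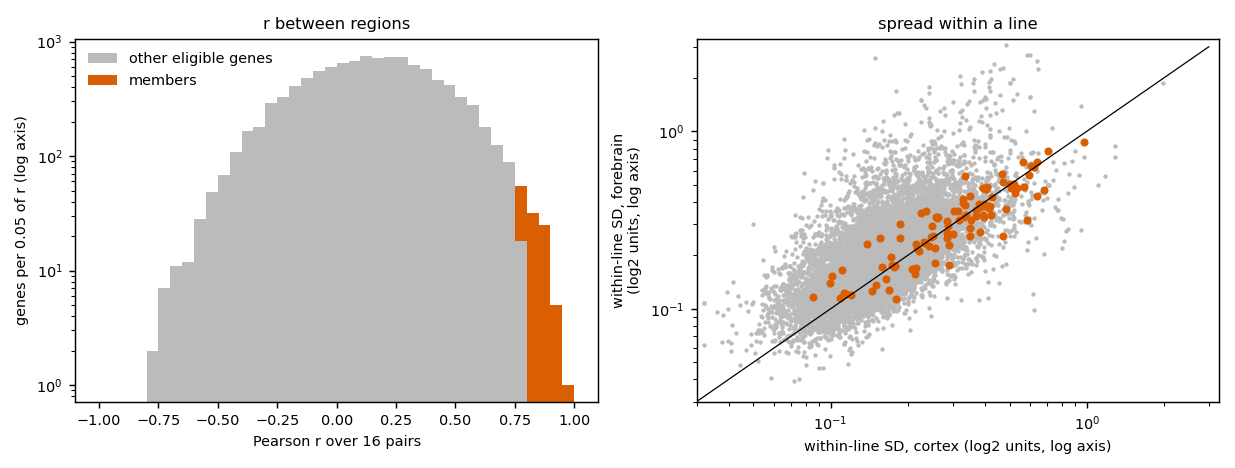
Left, number of genes in each step of 0.05 in Pearson's r over the 16 pairs (log axis), for the 100 covarying genes (orange) stacked on the other eligible genes (grey). Right, standard deviation within a line in the cortex and in the forebrain (log2 units, log axes), 1 point per gene, with the line of equal values. The covarying genes fill the right end of the distribution by choice and lie along the line of equal values, at a median of 0.31 and 0.32 log2 units.

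Sequencing depth was compared between paired libraries. The log2 totals of paired libraries had an r of -0.204 across the 16 pairs. The covarying genes' deviations had a median r with the log2 total of 0.03 in the cortex and -0.023 in the forebrain. An absolute r with the total over 0.5 was found in 8 of 100 genes in the cortex and in 7 in the forebrain. These counts were not made for the other eligible genes, so no background stands beside them, and a role of depth was not tested.

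ENSCAFG00000005389 had the highest r, 0.950. Its level in the cortex was lowest at 16.2 CPM, 28.4 at the median and highest at 79.3 in tame libraries, and 14.04, 23.5 and 55.0 CPM in aggressive ones. In the forebrain the tame values were 34.02, 47.98 and 132 CPM and the aggressive values 28.9, 39.99 and 92.8 CPM. The same pairs were high in both regions. Among tame pairs, pair 89 had 79.3 CPM in the cortex and 132 CPM in the forebrain, and pair 92 had 52.2 and 81.4 CPM. Among aggressive pairs, pair 37 had 55.0 and 92.8 CPM, and pair 32 had 47.2 and 65.3 CPM. Every other rule pair was at or under 33.7 CPM in the cortex and 49.1 CPM in the forebrain, so 4 pairs, 2 in each line, stood above the other 12 in both regions.

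ENSCAFG00000023835 had an r of 0.942. Its aggressive cortex libraries had a lowest value of 7.40 CPM, a median of 13.1 and a highest of 18.8 CPM, and the aggressive forebrain libraries had 13.1, 21.2 and 26.3 CPM. Pair 36 had the highest aggressive values in both regions and pair 32 the lowest in both. In the tame pairs of the rule, pair 83 had 16.8 CPM in the cortex and 23.3 CPM in the forebrain, and pair 84 had 7.48 and 13.9 CPM. The 4 left-out cortex libraries were at 1.67 to 3.70 CPM, under every other cortex library, while their forebrain partners ranged from 11.02 to 29.1 CPM. This gene thus shows how far those cortex libraries lay from the rest.

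ENSCAFG00000010347, with an r of 0.938, was set by low aggressive pairs. Pair 40 had 165 CPM in the cortex and 159 CPM in the forebrain, the lowest value of its group in both. Pairs 33, 32, 34 and 29 followed with 218 to 265 CPM in the cortex and 252 to 286 CPM in the forebrain. The remaining 6 aggressive pairs had 336 CPM or more in the cortex and 362 CPM or more in the forebrain, so the 2 sets of aggressive pairs did not overlap in either region. In the 5 tame pairs the cortex values hardly spread, from 332 to 342 CPM, and r over these 5 pairs was -0.717 against 0.963 over the 11 aggressive pairs.

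ENSCAFG00000008669 (r of 0.925) was highest in tame pair 92, with 15.9 CPM in the cortex and 19.4 CPM in the forebrain. In aggressive foxes pair 31 had the highest values, 12.1 and 14.2 CPM, followed by pair 39 with 9.68 and 12.6 CPM. The medians of the aggressive libraries were 4.39 and 6.74 CPM.

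ENSCAFG00000006842 (r of 0.923) ranged in aggressive cortex libraries from 2.57 to 19.1 CPM with a median of 7.58, and in aggressive forebrain libraries from 3.82 to 30.7 CPM with a median of 14.2. Pairs 34, 38 and 40 were the 3 highest aggressive pairs in both regions, at 12.6 to 17.2 CPM in the cortex and 21.4 to 24.2 CPM in the forebrain. Pairs 29, 32 and 36 were the 3 lowest in both, at 2.57 to 3.05 and 3.82 to 5.07 CPM.

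ENSCAFG00000002196 (r of 0.906) owed much of its r to 1 pair. Tame pair 83 had 5.28 CPM in the cortex and 8.46 CPM in the forebrain, where the next lowest tame pair of the rule, pair 84, had 17.5 and 19.7 CPM. Without pair 83 the r was 0.587.

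**Figure D2:**
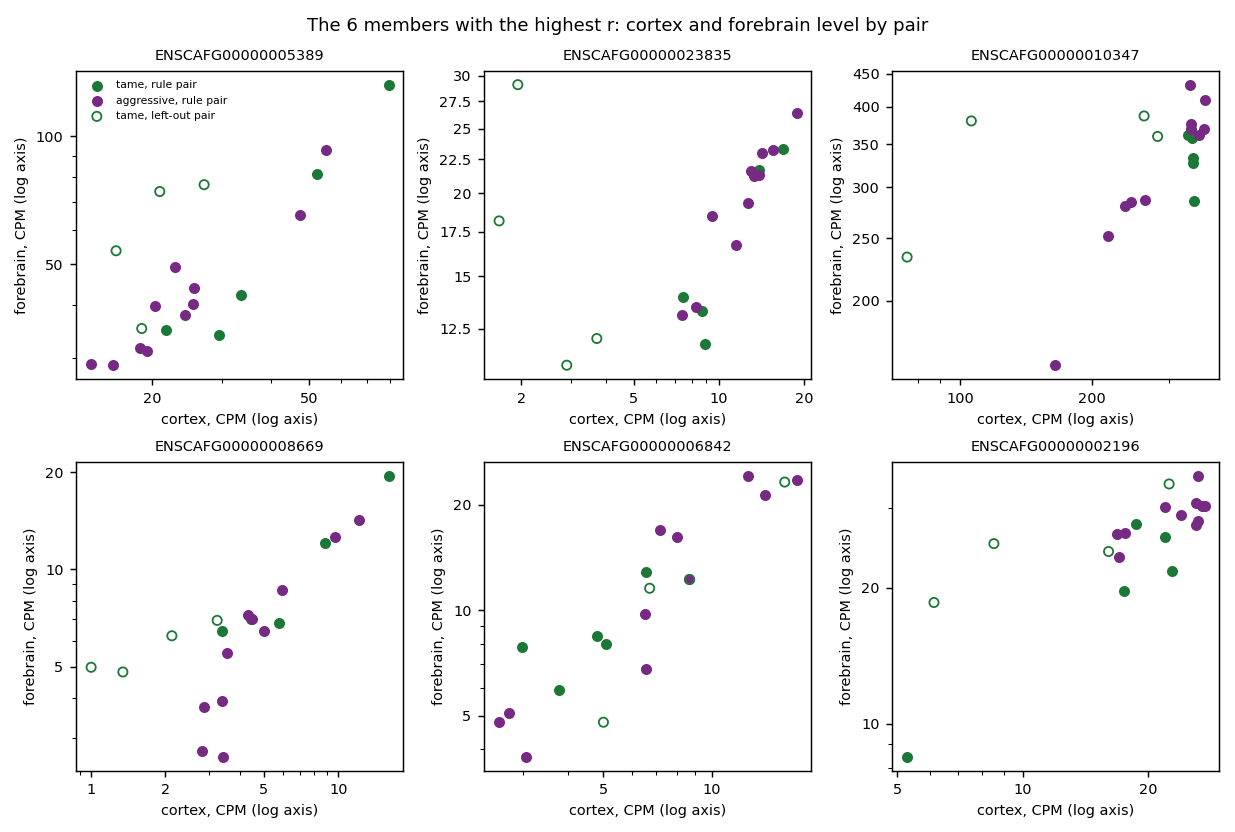
Level in the forebrain against level in the cortex (CPM, log axes) for the 6 covarying genes with the highest r, 1 point per pair. Filled points are the 5 tame (green) and 11 aggressive (purple) pairs of the rule and open points the 4 left-out tame pairs. Filled points of both lines rise together in each panel, apart from the tame points of ENSCAFG00000010347, and for ENSCAFG00000023835 the open points lie at 1.67 to 3.70 CPM in the cortex.

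The r of each gene was also taken with each pair left out in turn. The same pairs chose the genes, so a high remaining r is in part set by that choice. The lowest such r of a gene had a median of 0.760 over the 100 genes, and it fell under 0.7 in 21, under 0.6 in 5 and under 0.5 in 1. That gene was ENSCAFG00000030567, whose r of 0.777 became 0.335 without pair 32. Cortex library ID232 had 12.2 CPM of it and forebrain library ID532 had 12.6 CPM, against aggressive medians of 22.5 and 25.7 CPM. In 3 genes, 1 pair lay more than 0.5 log2 units below all others in both regions. They were ENSCAFG00000002196 with pair 83, ENSCAFG00000032179 with pair 40 and ENSCAFG00000030567 with pair 32. No covarying gene had a pair that far above the others in both regions, and 6 of the other eligible genes (0.0564%) had 1 pair that far out in either direction. The pair with the highest deviation was the same in both regions in 41 of 100 genes, compared with 10.2% of the other eligible genes. The pair with the lowest deviation was the same in 48, a count not made for the other eligible genes. Both counts come from the deviations that chose the genes.

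Taken by line, r was high for most of the genes, though the same pairs chose them. Over the 11 aggressive pairs the r had a median of 0.843, against 0.205 in the other eligible genes. It was over 0.5 in 99 of 100. The exception was ENSCAFG00000000679, with an r of 0.246 over the aggressive pairs and 0.971 over the tame ones. Over the 5 tame pairs the median was 0.840, with 87 genes over 0.5 and 10 under 0, and the other eligible genes had a median of 0.032. The share over 0.5 was not computed for the other eligible genes in either line, so these counts are a description.

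The widest range within a line belonged to ENSCAFG00000012226, whose deviations spanned 3.43 log2 units, and its tame libraries fell into a low and a high set. In the tame cortex, libraries ID189, ID192, ID186, ID190 and ID188 had 24.2, 26.03, 28.8, 29.4 and 38.1 CPM, and the other 7 had 128 to 204 CPM. In the tame forebrain, libraries ID489, ID492 and ID486 had 13.3, 8.46 and 15.3 CPM, and the other 7 had 40.02 to 100.98 CPM. The low sets carried the same digits, 86, 89 and 92, wherever both libraries were analysed, and pair 86 was not used by the rule. Aggressive libraries ranged from 101.8 to 421 CPM in the cortex and from 43.6 to 105 CPM in the forebrain, so the low tame libraries lay under every aggressive one in both regions. The line difference of this gene did not pass the test in either region (edgeR quasi-likelihood test with Benjamini-Hochberg adjustment, log2 fold change -1.33 with SE 0.36 and adjusted p = 0.0848 in the cortex, -0.71 with SE 0.31 and adjusted p = 0.393 in the forebrain).

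ENSCAFG00000024786 had the next widest range. Aggressive pair 40 had 24.0 CPM in the cortex and 35.4 CPM in the forebrain, against medians of 7.74 and 14.2 CPM, and was the highest aggressive library in both. The left-out cortex libraries had 0.524 to 1.16 CPM, under all other cortex libraries, while their forebrain partners had 5.23 to 20.9 CPM.

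The covarying genes did not rise and fall as 1 block. Among their 4950 gene pairs the deviations of a gene and another had a median r of 0.0094 in the cortex and 0.0063 in the forebrain, and a median absolute r of 0.21 and 0.217. The leading 3 components of their deviations held 15.4%, 13.5% and 9.37% of the variance. ENSCAFG00000009146 and ENSCAFG00000032563 shared all their values, as did ENSCAFG00000001347 and ENSCAFG00000028936, so each such couple carries 1 measurement that the counting may not have separated. Beyond these, 5 gene pairs had an r over 0.7 in both regions and 4 had an r under -0.7. The closest were ENSCAFG00000005143 and ENSCAFG00000024786, with 0.790 in the cortex and 0.778 in the forebrain. The most opposed were ENSCAFG00000030256 and ENSCAFG00000003647, with -0.794 and -0.771. These are the extremes of many gene pairs over 16 points and are a description.

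The genes most like ENSCAFG00000005389, by the mean of r in the 2 regions over the 16 pairs, were ENSCAFG00000015312 (0.589), ENSCAFG00000014174 (0.558) and ENSCAFG00000011403 (0.504). Among the rule's pairs, ENSCAFG00000015312 had its highest values in tame pair 92 in both regions, 28.3 and 38.4 CPM. ENSCAFG00000011403 was highest in left-out tame pair 91 in both regions, at 157 and 90.8 CPM.

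The libraries that the rule did not use had no part in r. Their deviations were measured from the rule's libraries, which chose the genes, so their similarity is not fully independent of that choice. For each cortex library and each forebrain library of the same line, the deviations of the 100 genes from the means of the rule's libraries, divided by each gene's standard deviation, were correlated over the genes. For the 16 pairs of the rule this similarity was 0.719 to 0.874, and each cortex library was most like its own partner. That much the choice of genes sets, so nothing is read from it. Over the other eligible genes the same 16 pairs had -0.173 to 0.350, and 4 of 16 cortex libraries were most like their partner.

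Cortex libraries ID181 and ID235 and forebrain libraries ID541 and ID595 have no partner with the same digits. Tame cortex library ID181 was most like tame forebrain library ID541, with a similarity of 0.738 where the next forebrain library reached 0.373. With deviations taken from the means of all libraries of a group, left-out ones included, it was 0.444 and still the highest of the 10. Aggressive cortex library ID235 was most like aggressive forebrain library ID595, with 0.509 where the next reached 0.187. Seen from the forebrain side, ID541 was most like ID181 and ID595 most like ID235 among the cortex libraries of the same line. But ID181 was also the closest tame cortex library of ID482 (0.306), ID487 (0.162) and ID491 (0.373). The 2 couples had the highest values among the 244 combinations within a line whose last 2 digits differ, which leaves out the 16 pairs of the rule and the 4 left-out pairs. The median of those combinations was -0.04, the third highest 0.373 and the lowest -0.502. Libraries ID181 and ID541 deviated to the same side in 78 of 100 genes, and libraries ID235 and ID595 in 70. Over the other eligible genes the similarity was 0.504 for the former couple and -0.188 for the latter. There the next forebrain library for ID181, ID489, reached 0.419. The labels do not say whether either couple came from 1 fox.

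Single genes, picked after their values were seen, show the likeness of these libraries. Library ID235 had 19.1 CPM of ENSCAFG00000006842 and library ID595 had 30.7 CPM, the highest aggressive value in each region. For ENSCAFG00000005389 they had 51.5 and 79.2 CPM, second only to pair 37 among aggressive libraries in both regions. Library ID181 had 8.71 CPM of ENSCAFG00000010223 and library ID541 had 8.69 CPM, the lowest tame value in each region. For ENSCAFG00000011229 they had 91.6 and 147 CPM, again the lowest tame values.

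Cortex libraries ID188 and ID190, whose forebrain counterparts were not analysed here, had no such match. Their highest similarity to any tame forebrain library was 0.152 and 0.177. The 4 left-out pairs were not alike either. The similarity was 0.158 for pair 82, 0.255 for pair 86, -0.339 for pair 87 and 0.158 for pair 91, and partners ranked 2, 1, 10 and 2 among 10 tame forebrain libraries. When these 4 cortex and 4 forebrain libraries were centred on their own means instead, the values were 0.196, 0.110, -0.237 and 0.462. Combinations whose digits differ reached 0.407 (ID182 with ID487) and 0.312 (ID186 with ID487) under that centring, above pairs 82 and 86. Outside the 16 pairs that chose the genes, like deviations were thus measured in the couples ID181 with ID541 and ID235 with ID595, and not in pairs 82, 86 and 87 or, with the first centring, pair 91.

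**Figure D3:**
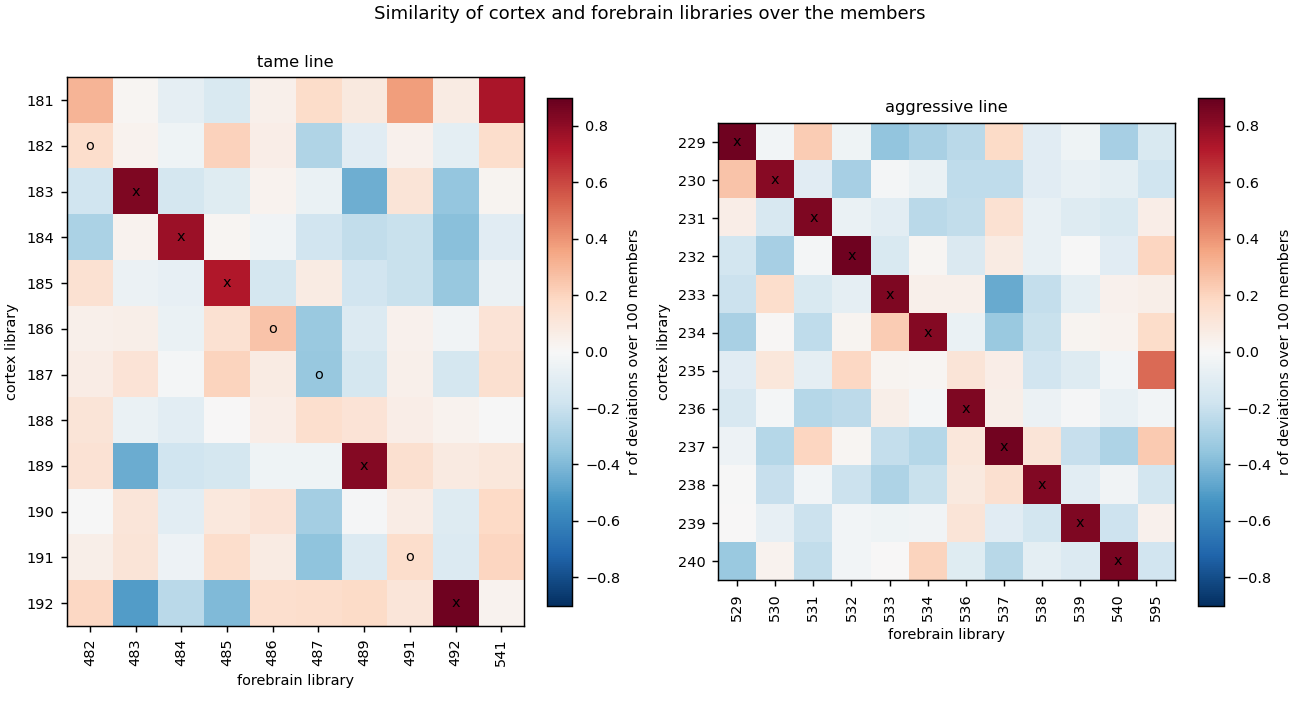
Similarity of each cortex library (vertical axis) to each forebrain library (horizontal axis) of the tame line (left) and the aggressive line (right), as the r of standardised deviations over the 100 covarying genes. Crosses mark the pairs of the rule and circles the left-out pairs. The crosses hold 0.719 to 0.874 by choice of the genes, the couples ID181 with ID541 and ID235 with ID595 hold 0.738 (0.444 with the means of all libraries) and 0.509, and the circles hold -0.339 to 0.255.

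The difference between the lines was not used to choose the genes, since the mean of each line was subtracted. In the cortex, 3 of the 100 covarying genes had a p under 0.05 after adjustment (quasi-likelihood test of edgeR, Benjamini-Hochberg adjustment over all genes of the table), and all 3 were higher in tame foxes. Of all genes tested in the cortex, 0.433% passed. An unadjusted p under 0.05 was reached by 45 covarying genes, compared with 34.6% of all genes tested and 36.7% of the eligible genes. Without the 4 left-out libraries, 2 covarying genes passed, compared with 0.188% of all genes. At an unadjusted p under 0.05 there were then 23 covarying genes, against 6.33% of all genes tested and 5.85% of the eligible genes. The median absolute log2 fold change was 0.16 in the covarying genes and 0.06 in the eligible genes in that fit, and 0.34 and 0.30 with all cortex libraries. Of the 100 signs, 74 were the same with and without the 4 libraries.

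In the forebrain, 2 covarying genes passed, both higher in tame foxes, compared with 0.0929% of all genes tested. An unadjusted p under 0.05 was reached by 22 covarying genes, against 11.5% of all genes tested and 11.8% of the eligible genes. The median absolute log2 fold change was 0.16 in the covarying genes and 0.09 in the eligible genes. The covarying genes were thus more often past the unadjusted threshold than the eligible genes in the forebrain and in the cortex without the 4 libraries. With all cortex libraries their share was nearer the background. DESeq2 gave an adjusted p to 44 covarying genes in the cortex and called 12 of them, where it called 17.7% of all genes with an adjusted p. In the forebrain it called 4 of 100, against 0.426% of all genes with an adjusted p.

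ENSCAFG00000000679 was higher in tame foxes in both regions. Its tame cortex libraries had a lowest value of 124 CPM, a median of 178 and a highest of 318 CPM, and the aggressive ones 116, 125 and 138 CPM. In 10 of 12 tame cortex libraries the value lay above every aggressive one, and tame libraries ID183 and ID188, with 124 and 126 CPM, lay within the aggressive range. The log2 fold change was 0.82 with SE 0.17 (edgeR adjusted p = 0.0321), and 0.39 without the 4 left-out libraries (adjusted p = 0.0250), which had the 4 highest values, 219 to 318 CPM. With limma-voom and all libraries it was 0.71 and did not pass (adjusted p = 0.0610). In the forebrain the tame values were 131, 173 and 198 CPM and the aggressive values 124, 135 and 151 CPM. There, 9 of 10 tame libraries lay above every aggressive one, and library ID483 did not. The log2 fold change was 0.36 with SE 0.056 (edgeR adjusted p = 0.00616). Pair 83, with 124 CPM in the cortex and 131 CPM in the forebrain, was thus the low tame pair in both regions.

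ENSCAFG00000009326 was also higher in tame foxes in both regions. In the forebrain its tame libraries had 69.1 CPM at the lowest, 98.1 at the median and 113 at the highest, and the aggressive ones 51.6, 69.0 and 87.2 CPM. The groups overlapped, with 7 of 10 tame libraries above all aggressive ones. The log2 fold change was 0.47 with SE 0.09 (edgeR adjusted p = 0.0293), and without library ID483 it was 0.46 (adjusted p = 0.0518). In the cortex the tame values were 28.6, 61.7 and 77.6 CPM and the aggressive values 39.3, 46.6 and 52.5 CPM. There, 10 of 12 tame libraries lay above all aggressive ones, and left-out libraries ID187 and ID191 lay below all of them at 28.6 and 37.97 CPM. The log2 fold change was 0.40 with SE 0.093 (edgeR adjusted p = 0.0464), and 0.50 without the 4 left-out libraries (adjusted p = 0.00529). With limma-voom the cortex difference was 0.39 and did not pass (adjusted p = 0.0668).

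ENSCAFG00000028566 was called in the cortex. Its tame libraries had 221, 272 and 424 CPM at the lowest, the median and the highest, and the aggressive ones 124, 183.9 and 259 CPM. Each of the 12 tame libraries exceeded the median of the aggressive ones, and 7 exceeded all of those. The log2 fold change was 0.79 with SE 0.15 (edgeR adjusted p = 0.0182). Without the 4 left-out libraries it was 0.53 and no longer passed (adjusted p = 0.0533). In the forebrain the tame values were 127, 162 and 195 CPM and the aggressive values 88.3, 124 and 212 CPM, with a log2 fold change of 0.37 and SE 0.12 (edgeR adjusted p = 0.290). Aggressive pair 34 had the highest aggressive value in both regions, 259 and 212 CPM.

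**Figure D4:**
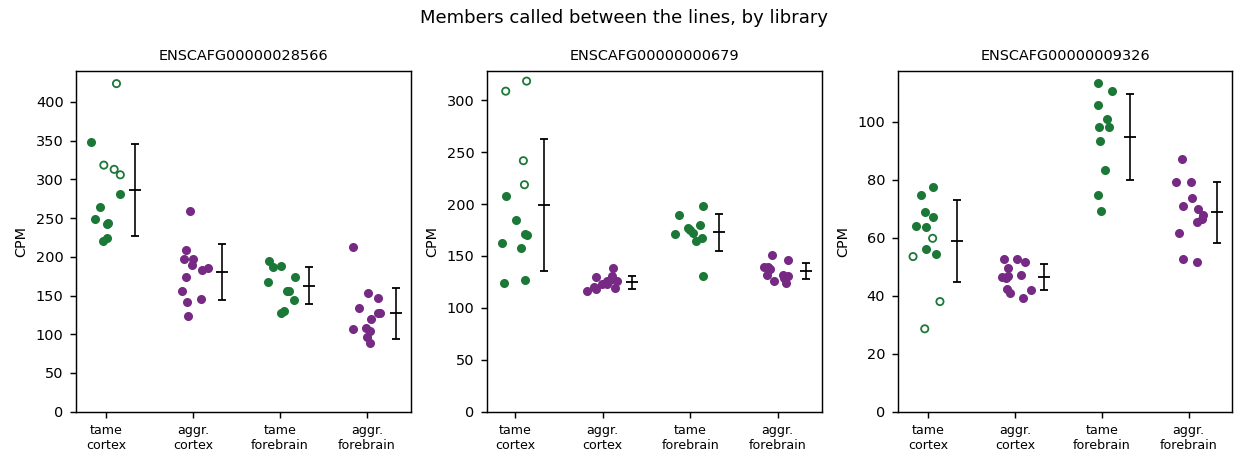
Level in each library (CPM) of the 3 covarying genes called between the lines, by line and region. Points are libraries, open points are the 4 left-out tame cortex libraries, and bars give the mean and SD of all libraries of a group. For ENSCAFG00000000679 the open points are the 4 highest of the tame cortex, at 219 to 318 CPM, and 9 of 10 tame forebrain libraries lie above all aggressive ones.

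Some line differences of the covarying genes were found in both regions. Without the 4 left-out libraries, 13 of 100 had an unadjusted p under 0.05 in both regions, all 13 with the same sign. Of these 6 were higher and 7 lower in the tame line. Of the eligible genes tested in both, 1.797% had an unadjusted p under 0.05 in both with the same direction. With all cortex libraries, 17 covarying genes had such a p in both, 16 of them in the same direction, against 4.53% of the eligible genes. The 2 comparisons draw on paired libraries whose values covary in these genes by choice, so 1 is no independent check of the other.

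The regions themselves differed in level for most of the covarying genes, a contrast the rule did not use. Between forebrain and cortex, 61 of 100 passed (edgeR quasi-likelihood test, Benjamini-Hochberg adjusted p under 0.05), 31 higher and 30 lower in the forebrain. Of all genes tested, 33.8% were higher and 30.2% lower, near the shares of the covarying genes in this fit. Without the 4 left-out cortex libraries, 56 covarying genes passed, 32 higher and 24 lower. Of all 12695 genes tested, 9136 then passed, 4973 higher and 4163 lower, a larger share than among the covarying genes. Both fits took the libraries as unpaired. Paired values of the covarying genes move together by choice, which affects their standard errors, so these shares are not like for like. The tables were counted separately by region, and region and table cannot be told apart. On the ratio of mean CPM, 5 of the 100 were over 2 times higher in the forebrain and 4 were under 0.5 times the cortex level. These 2 counts were not made for the other eligible genes, so no background stands beside them.

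The genes lower in the forebrain included ENSCAFG00000001382, with 24.5 to 48.3 CPM in tame cortex and 28.3 to 57.0 CPM in aggressive cortex, against 3.17 to 10.99 CPM and 4.99 to 13.1 CPM in the forebrain. No forebrain library reached the lowest cortex library, and the log2 fold change was -2.41 with SE 0.13 (edgeR adjusted p = 9.9e-21). Pair 40 was the highest aggressive pair in the cortex, at 57.0 CPM, and pair 83 the highest tame pair in both regions, at 48.3 and 10.99 CPM. ENSCAFG00000016552 had a log2 fold change of -0.63 with SE 0.049 (edgeR adjusted p = 2.25e-15), with medians of 157 and 142 CPM in tame and aggressive cortex and 118 and 103 CPM in the forebrain.

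Among the genes higher in the forebrain, ENSCAFG00000006757 had medians of 18.9 and 13.5 CPM in tame and aggressive cortex and of 53.6 and 36.9 CPM in the forebrain. The log2 fold change was 1.24 with SE 0.15 (edgeR adjusted p = 4.04e-10), and its ranges overlapped between regions, from 7.85 to 29.1 CPM in the cortex and from 24.3 to 72.8 CPM in the forebrain. ENSCAFG00000011229 had medians of 114 and 119 CPM in the cortex and 180 and 188.3 CPM in the forebrain, with a log2 fold change of 0.46 and SE 0.057 (edgeR adjusted p = 2.3e-09). Its pair 38 was the highest aggressive pair in both regions, at 161 and 233.9 CPM.

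Whether the line difference of a gene differed between regions was tested as an interaction. There, 0 of the 100 covarying genes passed, as did 0% of all genes tested, and DESeq2 and limma-voom also called 0 of the 100. With all libraries, an unadjusted p under 0.05 was found in 16 of 100, compared with 14.6% of all genes. Without the 4 left-out cortex libraries it was found in 3 of 100 and in 430 of all 12695 genes, and 0 passed after adjustment. With all libraries, the smallest adjusted p among the covarying genes was 0.327 (edgeR quasi-likelihood test), for ENSCAFG00000000679. Its line difference was 0.82 in the cortex and 0.36 in the forebrain on the log2 scale, with an interaction of -0.45 and SE 0.19. Without the 4 left-out libraries, which had its 4 highest cortex values, the cortex difference was 0.39, near that of the forebrain.

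Among the covarying genes, 8 had counts that were not whole numbers, as estimated counts can be, against 5.02% of the other eligible genes, and 4 shared all their values with another gene, against 4.22%.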

How the data were processed

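Per the file headers, the deposited values are estimated counts by dog Ensembl gene identifier, in 1 table for the cortex and 1 for the forebrain. The submitters' processing notes name CASAVA 1.8.2, FastQC, Trimmomatic, BWA, bedtools, edgeR and the dog build canFam3, without their roles; the counting program is not given in the sources used here. Estimated counts were rounded to whole numbers for the fits and used as deposited for CPM (pseudocount of 1 on the log2 scale). Libraries were grouped by line and region from their titles. The line, region and interaction tests used edgeR 4.0.16 (TMM scaling, filterByExpr with a minimum of 10 counts, robust quasi-likelihood test) with Benjamini-Hochberg adjustment over all genes tested. Alternatives were DESeq2 1.42.0, limma-voom (limma 3.58.1), other scaling and filters, and fits without single libraries; those added after seeing the data left out cortex library ID190 or forebrain library ID483, dropped the block from the paired fit, or changed how library similarity was computed. The scripts were tested on simulated data with 200 changed genes per fit. At the same threshold, false calls made up 11.5% of calls in the cortex, 6.11% in the forebrain, 6.19% between regions and 4.24% for the interaction. Of 1.5-fold changes, 46%, 77%, 84% and 33% were recovered, in the same order. The covarying genes, the lists and the tests were chosen with earlier results of these data known. Named are the 6 genes with the highest r, the 2 on each side of the cut, at most 2 called genes per direction and comparison, the 2 widest ranges and the 3 genes most like the leading one; others were named after their values were seen. Preset lists of cell type, stress and clock genes need symbols and were not used here.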

Additional observations from a re-analysis of the deposited data

Results flagged for a closer look

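For 20 named covarying genes, the highest and the lowest of the 10 tame forebrain libraries were compared with the nearest other library; the larger groups were not tested. In 2 of the 20 a library lay farther out than Dixon's 95% critical value for 10 samples. Chance gives about 1 in 20 where genes are not chosen on the values, but a shared extreme pair raises r and these libraries helped to choose the genes, so the values are a description and not a test. Tame forebrain library ID489 had 132 CPM of ENSCAFG00000005389, where the next library had 81.4 CPM, a gap of 0.519 of the group's range. The paired cortex library ID189, used by the same rule, was also the highest of its group, at 79.3 CPM. Tame forebrain library ID483 had 131 CPM of ENSCAFG00000000679, where the next lowest had 165 CPM, a gap of 0.504 of the range. The paired cortex library ID183 was the lowest of the tame cortex, at 124 CPM.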

How the results depend on the processing

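Of the 100 covarying genes, 61 stayed among the top 100 with Spearman's rho, 44 with all 20 pairs, left-out cortex libraries included, and 53 with the aggressive pairs alone; 86 stayed with TMM-scaled CPM, and 76 to 92 when 1 pair was left out. DESeq2 raised the covarying genes called between the lines to 12 in the cortex (10 higher, 2 lower) and 4 in the forebrain (3 higher, 1 lower), while all genes called went from 55 to 898 and from 12 to 54. Without forebrain library ID483 the forebrain count was 1. The similarity of libraries ID181 and ID541 was 0.798 with deviations in log2 units and 0.444 with means over all libraries, and that of ID235 and ID595 was 0.670 in log2 units; each stayed the highest for its cortex library in every setting run. Of 127 alternatives in all, 113 kept the direction and the side of the threshold or stayed within the margin. A value or count moved in 9, and 5 lost a call of a single gene. The margin was wide, since a list that kept 75 of the 100 genes counted as within it. Only the 64 fold changes of named called genes could count as reversed, and 0 did. Over all 100 genes, 74 cortex signs were the same without the 4 left-out libraries. The 5 lost calls were those of ENSCAFG00000028566 in the cortex without the 4 left-out libraries (0.53) and also without library ID190 (0.45), of ENSCAFG00000000679 (0.71) and ENSCAFG00000009326 (0.39) in the cortex with limma-voom, and of ENSCAFG00000009326 in the forebrain without library ID483 (0.46). The cause was not tested. The labels do not say that equal digits mark 1 fox, and over the other eligible genes the paired libraries did not all deviate together. A limma-voom fit with the digits as a replicate block over the 20 pairs had a consensus correlation of 0.0165 and called 65 covarying genes between regions, where it called 65.5% of all genes. This correlation is 1 value over all genes, so the block hardly takes up the pairing of the covarying genes, whose r was far higher by choice. The fit over the pairs without the block also called 65, and both called 0 in the interaction.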

Other observations

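Over the 100 covarying genes, 5 tame cortex libraries were most like the same forebrain library of the other line when all 22 forebrain libraries were compared. The similarity to aggressive forebrain library ID533 was 0.375 for ID182, 0.410 for ID186, 0.448 for ID187, 0.398 for ID190 and 0.429 for ID191, each the highest of its cortex library. The first 3 and the last of these are the libraries that the rule leaves out. Over the other eligible genes the highest similarity of these 5 was 0.352 to 0.436, with tame forebrain library ID485 in 4 and ID483 in ID182. Aggressive cortex library ID233, which shares its digits with ID533, had a similarity to it of 0.838 over the covarying genes, as a pair of the rule. This was seen after the data were examined and its cause was not tested.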
